A study of Mus musculus with 6 samples.

Results

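The genes described here are the insulin-like growth factor (IGF) binding proteins, the IGF receptors and the IGF ligands in sorted cells of the mouse amygdala. The members were 10 listed genes (*Igfbp2* to *Igfbp7*, *Igf1r*, *Igf2r*, *Igf2* and *Igf1*) of 32285 genes in the count matrices, and their UMIs (unique molecular identifiers, each standing for 1 captured RNA molecule) were read over all 13546 cell barcodes. The single-cell RNA sequencing (scRNA-seq) data comprised 3 gene expression libraries, each a pool of cells from several young adult male wildtype C57BL/6N mice sorted with an antibody against ACSA2, the cell-surface subunit ATP1B2 of the sodium pump. The hashtag table assigned 16 mice to groups of 4. NoFC mice explored the habituated conditioning chamber without shocks and FC mice received foot shocks in it, whereas NoFR mice were conditioned and stayed in the home cage on the next day and FR mice were returned to the chamber on that day for recall. Per the methods, mice were taken 90 min after the start of the behaviour. NoFR mice had no recall session, and the paper places them a day after conditioning, whereas FC mice were taken on the day of conditioning. These groups thus differed in the time since conditioning. Inhibitors of transcription and translation were present in the dissection and digestion of all groups. In library 1 there were 2 mice from every group. Library 2 comprised 1 NoFC mouse, 2 FC mice and 1 FR mouse, and library 3 comprised 1 NoFC mouse, 2 NoFR mice and 1 FR mouse.

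IGFs are peptide hormones that act on cells through the receptor tyrosine kinase encoded by *Igf1r*. The receptor encoded by *Igf2r* has no kinase and takes up IGF2, and mannose-6-phosphate-tagged lysosomal enzymes, for delivery to lysosomes. The binding proteins are secreted, hold IGFs in the extracellular space and thereby set how much ligand reaches the receptors, and *Igfbp7*, which binds IGFs weakly, is a known gene of the vessel wall. In the adult brain, *Igf2* is known from the meninges, the choroid plexus and vascular cells.

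Cells were placed in classes by UMI counts of genes that are not members. Astrocytes had at least 20 UMIs of *Slc1a2* and *Slc1a3* together and at most 3 of *Vtn* and *Rgs5*, and pericytes, the contractile cells that wrap capillaries, had at least 10 of *Vtn* and *Rgs5* and at most 5 of *Slc1a2* and *Slc1a3*. Cells with at least 5 *Acta2* UMIs (smooth muscle actin) are called Acta2 cells, and cells with at least 3 *Dcn* UMIs (decorin, a proteoglycan of connective tissue) are called Dcn cells. There were 8757 astrocytes with a median of 9891 UMIs per cell, 2211 pericytes with 4976, 22 Acta2 cells with 6706.5 and 41 Dcn cells with 6548. The remaining 2517 barcodes were in no class, with a median of 761 UMIs. Of the Acta2 cells 20, and of the Dcn cells 29, also met the pericyte rule and were left out of the pericytes, and 2 barcodes counted as both astrocytes and Dcn cells.

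The libraries had 5287, 3631 and 4628 barcodes and 42350059, 31700569 and 33368825 gene UMIs. Pairs of libraries shared 8, 7 and 3 cell barcodes. The names of astrocytes and pericytes held against markers, although the lists include the genes of the rules. The summed level of 10 astrocyte markers lay between 18218 and 18862 CPM (UMIs of a gene scaled to 1000000 UMIs of all genes in the class) in astrocytes and between 872 and 956 in pericytes. Most of the sum in pericytes was *Atp1b2*, the gene of the sorted antigen, at 674 CPM against 814 CPM in astrocytes. The summed level of 9 pericyte markers lay between 30203 and 30295 CPM in pericytes and between 141 and 161 in astrocytes. In Acta2 cells *Cnn1*, among the smooth muscle markers, was at 0, and in Dcn cells 6 of 6 fibroblast markers were detected, but *Lum*, *Col1a1* and *Pdgfra* in 24.4% to 34.1% of the cells only. The 9 pericyte markers were found in 61.0% to 95.1% of Dcn cells, so most of these cells carried pericyte genes too. A library sum of few cells cannot tell fewer expressing cells from less RNA per cell, so shares of cells are given beside levels.

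The genes *Igfbp2* and *Igfbp5*, the members higher in astrocytes than in pericytes, are neighbours. On chromosome 1 of GRCm38, *Igfbp2* (ENSMUSG00000039323) spans 72824503 to 72852474 and is read forward, and *Igfbp5* (ENSMUSG00000026185) spans 72857932 to 72874884 and is read in reverse, with a gap of 5457 bases and 0 annotated genes between them. *Igfbp7* (ENSMUSG00000036256), the binding protein gene of pericytes, lies on the reverse strand of chromosome 5 from 77349240 to 77408041. The 250 bases before a RefSeq start of each (GRCm38.p6, given 5′ to 3′ on the gene's strand) are shown because these genes marked opposite cell classes. They span chr1:72824230-72824479, chr1:72874866-72875115 and chr5:77408046-77408295, and capitals mark a GC box (GGGCGG or its reverse complement) or an E-box (CACGTG).
Igfbp2: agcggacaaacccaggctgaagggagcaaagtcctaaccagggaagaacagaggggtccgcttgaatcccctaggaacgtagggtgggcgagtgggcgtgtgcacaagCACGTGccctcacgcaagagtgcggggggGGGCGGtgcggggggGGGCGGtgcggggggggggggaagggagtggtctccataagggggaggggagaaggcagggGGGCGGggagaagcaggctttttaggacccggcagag
Igfbp5: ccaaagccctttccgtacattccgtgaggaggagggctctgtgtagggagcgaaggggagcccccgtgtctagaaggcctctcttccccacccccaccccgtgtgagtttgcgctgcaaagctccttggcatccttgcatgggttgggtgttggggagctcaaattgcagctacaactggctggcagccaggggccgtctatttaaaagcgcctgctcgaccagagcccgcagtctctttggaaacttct
Igfbp7: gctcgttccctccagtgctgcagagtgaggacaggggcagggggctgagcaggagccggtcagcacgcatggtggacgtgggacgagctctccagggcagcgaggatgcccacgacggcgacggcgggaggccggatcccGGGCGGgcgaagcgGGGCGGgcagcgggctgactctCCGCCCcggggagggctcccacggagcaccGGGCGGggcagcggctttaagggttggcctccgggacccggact
RefSeq has a further *Igfbp2* start, whose window (chr1:72825137-72825386) held neither motif. The *Igfbp2* window shown held 3 GC boxes and 1 E-box, the *Igfbp7* window held 4 GC boxes, and neither motif was found in the *Igfbp5* window. Among 32851 RefSeq promoter windows of the same length, 32.7% held a GC box and 6.02% an E-box. The cAMP response element TGACGTCA, found in 1.55% of all windows, and TATAAA, found in 12.4%, were in none of these 3 windows. These matches are descriptions of the sequence alone.

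*Igfbp2* and *Igfbp5* were found in astrocytes and in a minority of Dcn cells, *Igfbp7*, *Igf2* and *Igf2r* were genes of the vascular classes, and *Igf1r* was found in every class. *Igfbp4* had few UMIs and its highest level in Dcn cells. *Igfbp3*, *Igfbp6* and *Igf1* were close to absent. In all barcodes *Igfbp3* had 4 UMIs, *Igf1* had 4 and *Igfbp6* had 19.

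**Figure D1:**
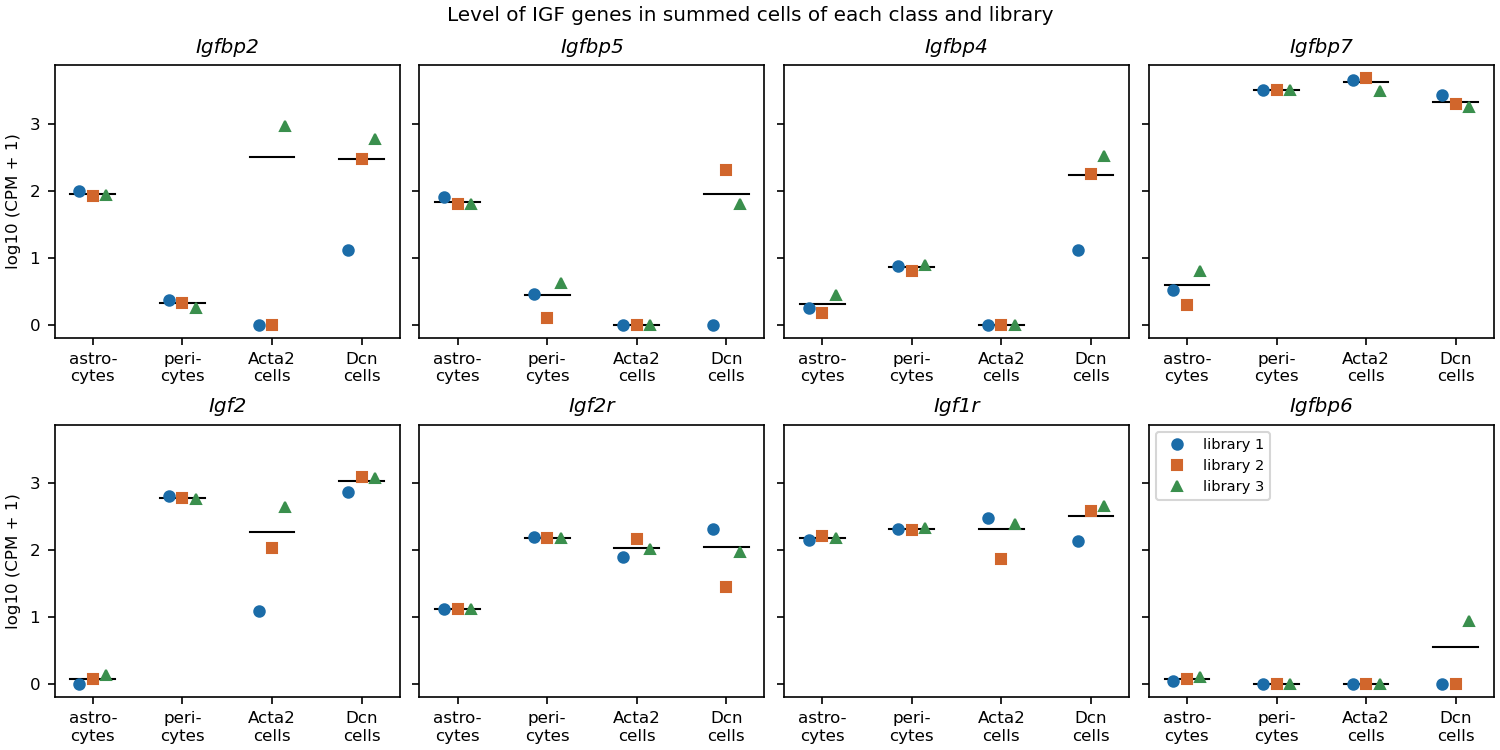
Level of 8 IGF genes as log10 of CPM plus 1 (vertical axis) in the summed cells of 4 classes (horizontal axis), with 1 point per library and a black line at the mean of 3 libraries. Library points of astrocytes and pericytes lie close together, whereas *Igfbp2* in Acta2 cells comes from library 3 alone (954 CPM) and the Dcn cells of library 1 lie low for *Igfbp2* (12.3 CPM), *Igfbp4* (12.3 CPM) and *Igfbp5* (0 CPM).

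Among the binding proteins, *Igfbp2* in astrocytes was counted at 99.3, 83.8 and 87.7 CPM in libraries 1 to 3, and in pericytes at 1.40, 1.16 and 0.826 CPM. The libraries of the classes did not overlap. All comparisons of classes used edgeR's quasi-likelihood test on sums per library, and *Igfbp2* was lower in pericytes than in astrocytes by a log2 fold change of −6.52 (standard error, SE, 0.156, adjusted p = 6.05e-24, edgeR). A UMI of *Igfbp2* was found in 27.7 ± 0.664% (SD, n = 3 libraries) of astrocytes and in 0.580 ± 0.139% of pericytes. When 4011 UMIs were drawn at random from each cell, the pooled shares were 18.8% and 0.483%. This thinning had to leave out 734 astrocytes and 553 pericytes with fewer UMIs.

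*Igfbp5* in astrocytes was counted at 79.5, 62.7 and 63.9 CPM and in pericytes at 1.87, 0.290 and 3.31 CPM. It too was lower in pericytes, with a log2 fold change of −5.44 (SE 0.179, adjusted p = 1.17e-20, edgeR). The level of *Igfbp2* in pericytes was 1.26% of its astrocyte level and that of *Igfbp5* was 2.65%, and 6 astrocyte markers (*Aqp4*, *Gja1*, *Gjb6*, *Slc4a4*, *Cpe* and *Clu*) were at 0.804% to 1.58%. Pooled over libraries, the share of *Igfbp2* lay within the range of these markers, but in single libraries it did not. It was above the highest marker, *Cpe*, in library 1 (1.414% against 1.409%) and library 2 (1.38% against 1.16%). In library 3 it was below the lowest, *Slc4a4* (0.942% against 0.976%), and all pericytes held 13 *Igfbp2* UMIs. For *Igfbp5* the share varied from 0.463% to 5.17% over libraries, with 21 UMIs in all pericytes. The part of astrocyte RNA in these pericyte levels was not tested.

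*Igfbp7* had the opposite order. It was counted at 3212, 3247 and 3258 CPM in pericytes and at 2.39, 1.03 and 5.36 CPM in astrocytes. The level in pericytes was higher by 9.91 on the log2 scale (SE 0.145, adjusted p = 7.34e-29, edgeR). A UMI was found in 99.6 ± 0.208% of pericytes (n = 3 libraries), with a median of 16 UMIs per cell, and in 1.71 ± 0.707% of astrocytes, at a greater median depth. The gene overlaps *Polr2b* by 85 bases and the antisense gene *Gm34648* by 7085, and the sources used here do not say whether counting used the strand.

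*Igfbp4*, whose product binds both IGFs, was counted at 6.56, 5.51 and 6.89 CPM in pericytes and at 0.823, 0.516 and 1.80 CPM in astrocytes. It was higher in pericytes by 2.46 on the log2 scale (SE 0.338, adjusted p = 2.57e-07, edgeR). These levels rest on 72 UMIs in pericytes and 94 in astrocytes, of which 37 lay in 1 astrocyte-rule barcode of library 3 that also held 89 *Dcn* UMIs.

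The ligand gene *Igf2* (ENSMUSG00000048583, chromosome 7, 142650766 to 142666816, reverse strand) was counted at 657, 598 and 587 CPM in pericytes. In astrocytes it had 17 UMIs in all, or 0.0274, 0.221 and 0.360 CPM. It was higher in pericytes by 11.43 on the log2 scale (SE 0.122, adjusted p = 8.97e-32, edgeR). With so few UMIs in astrocytes, *Igf2* passed the filter on low counts through the pericytes. That filter largely set the direction, so this call is no support for it. A UMI was found in 71.5 ± 1.46% of pericytes (n = 3 libraries), with a median of 2 and a maximum of 35 UMIs per cell, and in 0.201 ± 0.157% of astrocytes. The annotated *Igf2* locus overlaps *Gm49394* on the same strand and *Igf2os* on the other. The other ligand gene, *Igf1*, had 0 UMIs in astrocytes, which allows up to 0.0328 CPM, and 3 in pericytes, all of library 3.

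The scavenging receptor gene *Igf2r* (chromosome 17, 12682406 to 12769664, reverse strand) was counted at 158, 152 and 152 CPM in pericytes and at 12.5, 12.4 and 12.4 CPM in astrocytes. It was higher in pericytes by 3.42 on the log2 scale (SE 0.0649, adjusted p = 2.96e-26, edgeR). Pericytes with an *Igf2r* UMI made up 48.2 ± 1.87% of their class and astrocytes with one 11.0 ± 0.295% of theirs. The level in astrocytes was between 7.91% and 8.15% of that in pericytes in the 3 libraries, whereas the pericyte markers *Higd1b*, *Kcnj8*, *Abcc9* and *Ndufa4l2* were at 0.0223% to 0.0935% and *Atp13a5* at 1.40% to 1.59%. The share of *Igf2r* was above that of each of these 5 markers, whose own shares differed. The part of pericyte RNA in the astrocyte level was not tested. *Igf2r* overlaps its antisense partner *Airn*, a long noncoding RNA that silences *Igf2r* on the paternal allele in peripheral tissues, over 28354 bases. *Airn* itself was at 679 ± 4.83 CPM in pericytes and 10.4 ± 1.40 CPM in astrocytes (log2 fold change 5.81, SE 0.064, n = 3 libraries).

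The signalling receptor gene *Igf1r* (chromosome 7, 67952827 to 68233668, forward strand) differed least. It was counted at 208, 198 and 214 CPM in pericytes and at 145, 165 and 154 CPM in astrocytes. The log2 fold change was 0.21 (SE 0.056, adjusted p = 0.00143, edgeR), and DESeq2 (adjusted p = 0.128), the fit on sums per mouse (0.149) and the fit without library 1 (0.0646) did not call it. An *Igf1r* UMI was present in 63.1 ± 2.40% of astrocytes, the deeper cells, and in 56.1 ± 1.09% of pericytes (n = 3 libraries), an order that turned around after thinning (40.9% and 50.8%).

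**Figure D2:**
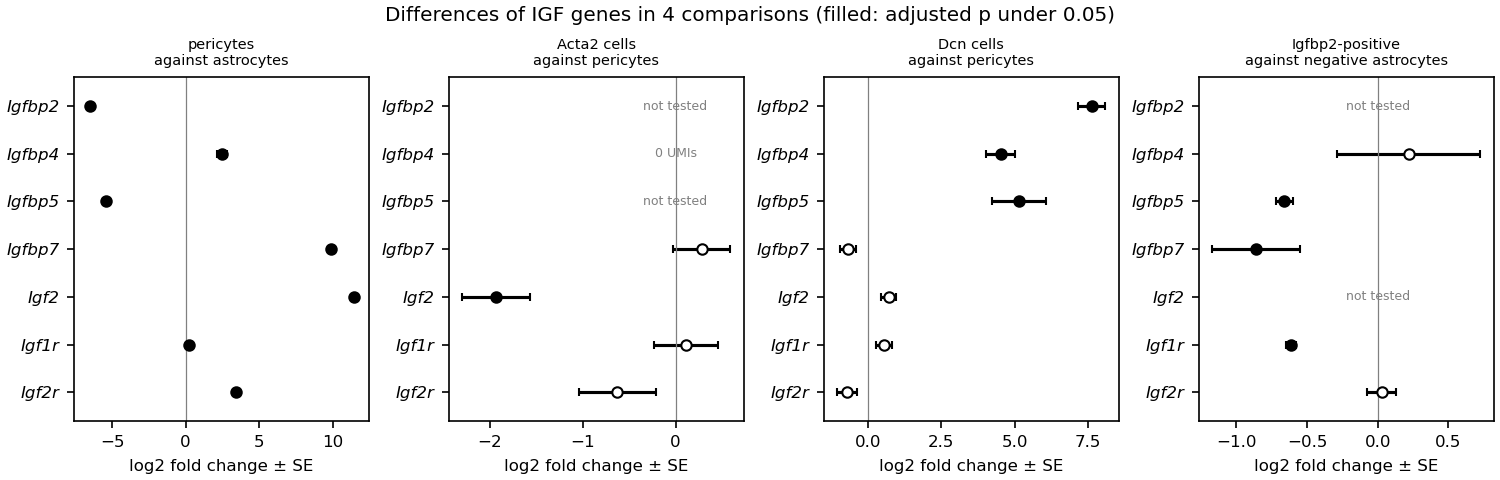
Log2 fold changes (points, horizontal axis) with their standard errors for the tested members in 4 comparisons, from edgeR's quasi-likelihood test, filled where the adjusted p was under 0.05. Pericytes against astrocytes spans −6.52 for *Igfbp2* to 11.43 for *Igf2*, and *Igfbp2* (7.63) is the farthest point of the Dcn cells; the horizontal scale differs between panels.

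In the comparison of pericytes with astrocytes, 7 members were tested, of which 5 were higher and 2 lower in pericytes. The background was large, since 78.7% of 15777 genes tested were called at an adjusted p under 0.05 (36.0% higher and 42.8% lower), so the number of members called is no result about them. Their median log2 fold change was 2.46 and that of all genes −0.12. Without TMM normalization (scaling by a trimmed mean of log ratios) the values of all genes moved up by a median of 0.22.

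Other genes of IGF and insulin signalling, a list of 32, were divided in the same comparison. Of 26 tested, 14 were higher and 8 lower in pericytes, and 4 were not called. The called share of 84.6% was near the 78.7% of all genes tested, so the count is no result about the list. The list's median log2 fold change was 0.54 and that of all genes −0.12. Higher in pericytes were the adaptors *Grb10* (197 ± 12.8 against 0.734 ± 0.223 CPM, log2 fold change 7.88, n = 3 libraries) and *Grb14* (7.78), which bind activated insulin and IGF1 receptors. *Stc1*, a stanniocalcin that inhibits the proteases cleaving IGF binding proteins, was at 23.8 ± 3.44 against 0.0548 ± 0.0189 CPM (8.37).

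On the kinase side, *Akt1* (1.24) and *Pik3ca* (0.95) were higher in pericytes, whereas *Akt2* (−0.33) was lower. The adaptor gene *Shc1* (2.24) was higher in pericytes. *Irs1* (0.32), *Irs2* (0.34), *Igf2bp1* (6.23), *Pappa2* (2.58), *Stc2* (2.61), *Airn* (5.81) and *Lrp1* (0.74) were also called higher. Among the genes lower in pericytes were the transcription factor genes *Foxo1* (36.3 ± 4.83 against 143 ± 7.26 CPM, log2 fold change −2.20) and *Foxo3* (−0.79), the growth hormone receptor gene *Ghr* (−1.21), *Igfbpl1* (−5.64) and *Igf2bp2* (−2.15). *Pik3r1* was called lower in the fit with TMM (−0.16). Its CPM without TMM was higher in pericytes in 3 of 3 libraries (332 ± 10.7 against 319 ± 4.01), so its direction depended on normalization. The kinase genes *Akt1* and *Akt2* thus differed in direction. All fold changes given are log2 values in edgeR's fit with an adjusted p under 0.05. *Stc1*, *Grb14*, *Igf2bp1*, *Pappa2* and *Stc2* had 5, 17, 1, 10 and 17 UMIs in astrocytes and passed the filter on low counts through the pericytes. *Igfbpl1* and *Igf2bp2* had 1 and 2 UMIs in pericytes and passed it through the astrocytes. The direction of these genes was largely set by the filter.

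The Acta2 cells, of which 22 of 22 had a UMI of smooth muscle myosin (*Myh11*) and 16 one of *Tagln*, had much *Igfbp7* and little *Igf2*. *Igfbp7* was counted at 4567, 4953 and 3157 CPM in libraries 1 to 3, and a UMI was found in 22 of 22 cells. The log2 fold change over pericytes was 0.28 (SE 0.306, adjusted p = 0.755, edgeR), and the interval that 2 standard errors give holds differences of either sign. *Igf2r* was counted at 79.7, 145 and 102 CPM, all below the pericytes of the same library, with a log2 fold change of −0.63 that was not called (SE 0.412, adjusted p = 0.522). *Igf1r* was at 308, 72.3 and 250 CPM on 51 UMIs and was not called either (0.11, SE 0.345).

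*Igf2* was lower in Acta2 cells than in pericytes. It was counted at 11.4, 108 and 443 CPM in the 3 libraries, each below the 587 to 657 CPM of pericytes. The log2 fold change was −1.93 (SE 0.361, adjusted p = 5.22e-06, edgeR). The call was lost without library 1 (−0.997, adjusted p = 0.37), without library 2 (−1.71, adjusted p = 0.162) and in DESeq2 (adjusted p = 0.0535).

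A single cell held most of the *Igf2* and *Igfbp2* of this class. It was a library 3 barcode with 41593 UMIs that did not meet the pericyte rule, and it held 83 of 84 *Igfbp2* UMIs and 38 of 43 *Igf2* UMIs of the 22 cells. The same barcode had 14436 UMIs of *Ttr* (transthyretin, a secreted carrier of thyroid hormone made by the choroid plexus), 34.7% of its total, with 11 UMIs of *Folr1* and 45 of *Kl*, further genes of choroid plexus epithelium, and 71 of *Acta2*. Its mitochondrial share was 8.58%. Left out, the other 21 cells had 5 *Igf2* UMIs in 4 cells (30.9 CPM) and 1 *Igfbp2* UMI. In a fit without it, chosen after the data were seen, *Igf2* was lower by −4.49 on the log2 scale (adjusted p = 2.40e-23, edgeR) and *Igf2r* by −1.14 without a call (adjusted p = 0.0926). Leaving out the cell with most *Igf2* UMIs lowers *Igf2* by itself, so its call in that fit is no support. *Igfbp4* and *Igfbp5* had 0 UMIs in all 22 cells, which allows up to 14.7 CPM, above the levels of both genes in pericytes.

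Of 10925 genes tested between Acta2 cells and pericytes, 7.25% were called (3.63% higher and 3.62% lower), and 1 of 5 members tested was called, lower. In the pathway list 1 of 21 genes tested was higher and 5 were lower. The lower genes included *Airn* (256 ± 95.3 against 679 ± 4.83 CPM, log2 fold change −1.55, n = 3 libraries), *Grb10* (−1.53), *Pik3r1* (−1.40) and *Lrp1* (−0.98). *Grb10* rested on 13 UMIs in Acta2 cells and lay below pericytes in 2 libraries and above them in 1. The gene called higher was *Pappa2*, a protease that cleaves *Igfbp5* and *Igfbp3* products, with 83 UMIs in Acta2 cells and 9 in pericytes (log2 fold change 8.31, SE 0.608). Its level varied widely among the libraries of Acta2 cells (315 ± 460 CPM), above pericytes in 2 libraries and below them in 1. With 9 UMIs in pericytes, *Pappa2* passed the filter on low counts through the Acta2 cells. Its direction was thus largely set, and the call is no support for it.

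Some of the Dcn cells carried the binding proteins *Igfbp2*, *Igfbp4* and *Igfbp5*. *Igfbp2* was counted at 12.3, 298 and 603 CPM in libraries 1 to 3, on 1, 33 and 77 UMIs, each above the pericytes of the same library. The log2 fold change over pericytes was 7.63 (SE 0.470, adjusted p = 1.76e-32, edgeR), 8.63 without library 1 and 6.34 without library 3, and was called in each case. With 13 UMIs in pericytes, the gene passed the filter on low counts through the Dcn cells. That filter largely set the direction, so these calls are no support for it. A UMI was found in 13 of 41 cells (31.7%, exact Clopper-Pearson 95% interval 18.1% to 48.1%), with up to 32 per cell.

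*Igfbp4* was counted at 12.3, 181 and 329 CPM on 63 UMIs, of which 37 lay in the 1 barcode with 89 *Dcn* UMIs that also met the astrocyte rule. The log2 fold change was 4.52 (SE 0.482, adjusted p = 1.64e-14, edgeR), and 1.67 without a call (adjusted p = 0.795) with stricter class limits. *Igfbp5* was at 0, 208 and 62.7 CPM on 31 UMIs, with a UMI in 6 of 41 cells (14.6%) and up to 12 per cell. The log2 fold change of *Igfbp5* was 5.16 (SE 0.931, adjusted p = 1.04e-05, edgeR), and DESeq2 did not call it (adjusted p = 0.375). With 21 UMIs in pericytes, it too passed the filter on low counts through the Dcn cells, so its direction was largely set. *Igfbp2*, *Igfbp4* and *Igfbp5* were all low in library 1, in which 1 of 12 Dcn cells had a UMI of *Lum*, *Col1a1* or *Pdgfra*. The summed level of the 10 astrocyte markers was 1234, 1690 and 4107 CPM in the Dcn cells of libraries 1 to 3. It was above the pericytes of each library, with *Gfap* at 0. It rose in the order of *Igfbp2* and *Igfbp4*, whereas *Igfbp5* was highest in library 2. The part of astrocyte RNA in these results was not tested.

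The Dcn cells were divided by these fibroblast genes. The 14 cells with a UMI of *Lum* (lumican), *Col1a1* or *Pdgfra* held 110 of 111 *Igfbp2* UMIs, 61 of 63 *Igfbp4* UMIs and 23 of 31 *Igfbp5* UMIs. *Igf2* was found in 12 of these 14 cells at 1868 CPM and in 19 of the other 27 at 577 CPM. *Igfbp7* ran the other way, with 922 CPM in the 14 cells, 6 of which had a UMI, and 2940 CPM in the 27 cells, all of which had one. *Igf2r* had 2 UMIs in the 14 cells and 30 in the 27. The cells without these genes thus had levels of *Igfbp7*, *Igf2* and *Igf2r* (160 CPM) near those of pericytes. This division was made after the data were seen and has no test.

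**Figure D3:**
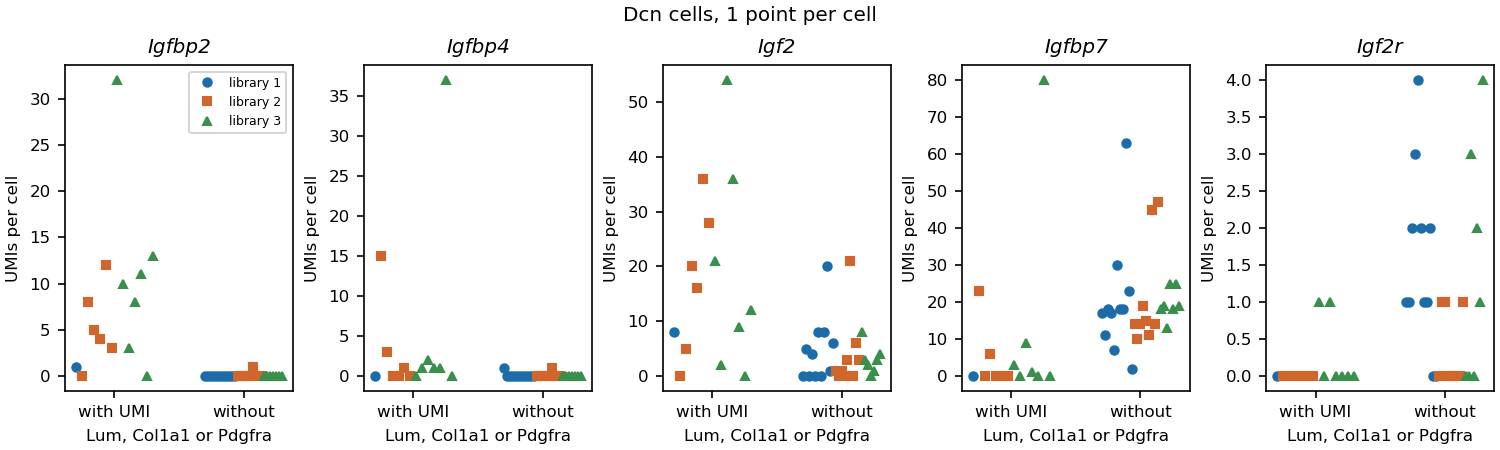
UMIs per cell (vertical axis) of 5 IGF genes in the 41 Dcn cells, split by whether the cell had a UMI of *Lum*, *Col1a1* or *Pdgfra* (horizontal axis), with 1 point per cell and colour and shape for the library. *Igfbp2* reaches 32 UMIs among the 14 cells with such a UMI and is at 0 in 26 of the 27 others, and 11 of the 12 cells of library 1 are among the 27.

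The other members were not called in Dcn cells. *Igf2* was counted at 740, 1265 and 1215 CPM, above pericytes in each library (log2 fold change 0.70, SE 0.259, adjusted p = 0.119, edgeR). *Igf1r* was at 136, 389 and 462 CPM (0.55, SE 0.277, adjusted p = 0.393). *Igfbp7*, at 2764, 1970 and 1803 CPM, lay below pericytes in each library (−0.68, SE 0.270, adjusted p = 0.178), and *Igf2r*, at 210, 27.1 and 94.0 CPM, had no common direction (−0.71, SE 0.332, adjusted p = 0.313). Library 1 decided these values. Without it all 4 were called, with log2 fold changes of 0.98 for *Igf2*, 0.96 for *Igf1r*, −0.87 for *Igfbp7* and −1.39 for *Igf2r*.

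Of 11293 genes tested between Dcn cells and pericytes, 4.47% were called (3.26% higher and 1.21% lower), and 3 of 7 members tested were called, all higher. The members' median log2 fold change was 0.70 and that of all genes −0.10. *Igfbp2* and *Igfbp5*, with 13 and 21 UMIs in pericytes, passed the filter on low counts through the Dcn cells. They were not tested in Acta2 cells against the same pericytes. Their direction was largely set by that filter, so the count and the median are no result about the members. In the pathway list 1 of 21 genes tested was called, *Airn*, which was lower (425 ± 220 CPM in Dcn cells, log2 fold change −0.86, adjusted p = 0.0438, edgeR). *Airn* lay below pericytes in 2 libraries and above them in 1. With only the 29 Dcn cells that met the pericyte rule, a setting chosen after the data were seen, *Igfbp2* (6.42) and *Igfbp5* (4.76, adjusted p = 0.0101) were called and *Igfbp4* (1.18) was not. In these cells *Igfbp2* rested on 25 UMIs in 4 cells and *Igfbp5* on 10 UMIs in 2 cells. All of these cells held *Pdgfra* UMIs and so were among the 14 with fibroblast genes. The direction of both genes was again largely set by the filter.

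Within astrocytes *Igfbp2* was found in a minority of cells, so cells with at least 1 *Igfbp2* UMI (2434) were compared with those without (6323). The share with a UMI was 28.5%, 27.2% and 27.5% in the 3 libraries. Of all astrocytes 8.88% had 1 UMI, 4.92% had 2 and 1.12% had 10 or more, with a maximum of 27. The positive cells were deeper, with a median of 11875.5 UMIs against 9179, and a split after thinning to 7232 UMIs per cell, which left out 2188 shallower astrocytes, is given beside the results for *Igf1r*, *Igfbp5* and *Igfbp7*.

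The signalling receptor gene *Igf1r* was lower in *Igfbp2*-positive astrocytes. Positive astrocytes of libraries 1 to 3 had 104, 119 and 117 CPM, and negative astrocytes had 165, 186 and 172 CPM. The groups did not overlap, and the log2 fold change was −0.61 (SE 0.0363, adjusted p = 9.78e-12, edgeR). It was −0.63 with the split made on thinned cells, −0.71 when at least 3 *Igfbp2* UMIs were required and −0.61 without the progenitor-marker cells described below. Among thinned cells 45.6% of positive and 60.7% of negative astrocytes had an *Igf1r* UMI.

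*Igfbp5* was also lower in *Igfbp2*-positive astrocytes, at 51.1, 46.4 and 50.8 CPM against 94.1, 70.3 and 70.4 CPM. The log2 fold change was −0.66 (SE 0.0587, adjusted p = 6.64e-09, edgeR). It shrank to −0.42 on thinned cells (adjusted p = 3.66e-05) and to −0.27 (adjusted p = 1.53e-04) without the progenitor-marker cells. The share of thinned cells with an *Igfbp5* UMI was 27.5% of positive and 28.8% of negative astrocytes.

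Part of the *Igfbp5* lay in a few cells. Of the astrocytes 114 had 3 or more UMIs of the proliferation and neuroblast genes *Mki67*, *Top2a*, *Sox11* and *Dcx*. These cells, 49, 25 and 40 in the 3 libraries, held 1513 of 6380 *Igfbp5* UMIs (641 CPM against 54.6 CPM in the other 8643). They were deep, with a median of 18736 UMIs. Their *Igf1r* was at 281 CPM against 150, and their *Igfbp2* at 38.1 CPM against 92.6. Of 45 astrocytes with 10 or more *Igfbp5* UMIs, 40 had a *Sox11* UMI, 27 an *Mki67* UMI and 1 an *Igfbp2* UMI. The related gene *Igfbpl1*, an IGF binding protein-like gene known from neuroblasts, had 365 of its 367 astrocyte UMIs in the 114 cells. The summed level of these 4 marker genes was between 16.2 and 32.1 CPM in *Igfbp2*-positive and between 69.3 and 125 CPM in *Igfbp2*-negative astrocytes. The 114 cells were not all *Igfbp2*-negative. By share, 25.4% of them were positive, against 27.8% of the other 8643, which were shallower. *Sox11* was lower in positive astrocytes (log2 fold change −1.27), but without the 114 cells it was called higher (0.28, adjusted p = 0.0161, edgeR). The 114 cells were picked partly by their *Sox11* UMIs, so the call without them is no result about *Sox11*. The limit of 3 UMIs was chosen after the data were seen, and these values are a description.

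**Figure D4:**
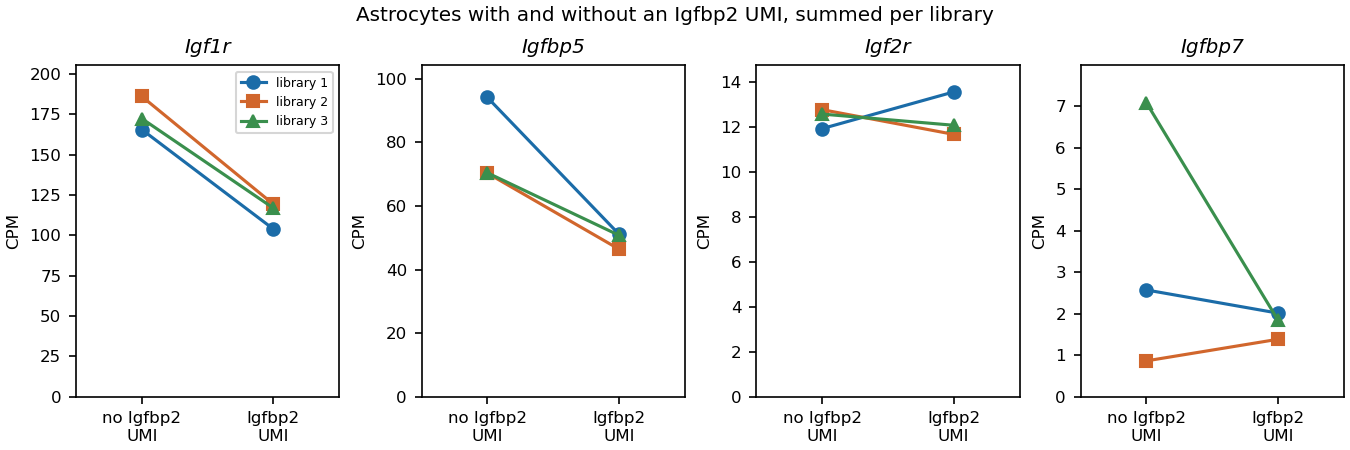
Level in CPM (vertical axis, from 0) of 4 IGF genes in astrocytes without and with an *Igfbp2* UMI, with 1 line per library joining the sums of the same library. *Igf1r* falls in each library from 165–186 to 104–119 CPM and *Igfbp5* from 70.3–94.1 to 46.4–51.1 CPM, *Igf2r* stays between 11.7 and 13.6 CPM, and the *Igfbp7* line of library 3 starts at 7.09 CPM.

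*Igf2r* was at 13.6, 11.7 and 12.1 CPM in positive astrocytes, against 11.9, 12.8 and 12.6 CPM in the negative ones, with a log2 fold change of 0.03 (SE 0.102, adjusted p = 0.864). *Igfbp7* was called lower (−0.86, SE 0.309, adjusted p = 0.0323, edgeR) on 54 and 210 UMIs, but 80 of the latter lay in the 1 barcode with 89 *Dcn* UMIs. Without library 3 its log2 fold change was −0.03 (adjusted p = 0.966), and on thinned cells it was not called (−0.36, adjusted p = 0.499), as in 7 of 13 alternatives in all. *Igfbp4*, on 33 and 61 UMIs, of which 37 of the latter lay in that same barcode, was not called (0.22, adjusted p = 0.78), and without library 3 it was called higher (1.64, adjusted p = 0.025).

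The background of this split was 37.1% of 15022 genes called (18.4% higher and 18.6% lower), and 3 of 5 members tested were called, all lower. In the pathway list 1 of 21 genes tested was higher and 8 were lower in *Igfbp2*-positive astrocytes. *Akt2*, a kinase of insulin signalling, was the gene called higher (56.5 ± 0.387 against 38.3 ± 1.69 CPM, log2 fold change 0.58, n = 3 libraries). *Igfbpl1* (−7.17) and *Grb10* (−1.99) had the largest declines on few UMIs, whereas *Foxo3* (−0.29), the insulin receptor gene *Insr* (100 ± 5.38 against 123 ± 3.65 CPM, −0.29), *Foxo1* (−0.24), *Pik3r1* (−0.23) and *Ghr* (−0.16) were lower by less.

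Across all genes, the 20 with the largest changes in the same direction in 3 of 3 libraries were all lower in *Igfbp2*-positive astrocytes. They included genes known from neuroblasts and neural progenitors, *Gsx1* (0 against 73 UMIs), *Insm1* (log2 fold change −4.61), *Dcx* (−4.30), *Myt1* (−5.61), *Cd24a* (−4.86) and *Scrt2* (−4.58), and genes known from DNA replication and mitosis, *Chaf1b* (0 against 58 UMIs), *Kif14* (−5.06), *Ndc80* (−4.46) and *Ccnb1* (−4.42). *Mxd3* (−5.13), *Rtkn2* (−4.36), *Slit1* (−4.34), *Thbs4* (−4.49), *Lockd* (−4.59), *Slc38a1* (−4.38), *Igsf9* (−4.49), *B3gnt5* (−4.22) and *Olfr655* (−4.22) completed the list with *Igfbpl1*. Without the 114 progenitor-marker cells, 3 of these 20 genes, *Thbs4*, *Slc38a1* and *Olfr655*, still passed the filter on low counts, and all 3 were called. Among thinned cells 5 of the 20 could be tested, and all 5 were called. The 20 genes were picked on these same cells and passed the filter on low counts through the negative astrocytes. Their calls in these subsets are therefore no independent support.

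The genes with the largest rises in the same direction in 3 of 3 libraries were *A330087D11Rik* (3.06), *Aqp1* (2.72), *Ermap* (2.70), *Kcng4* (2.52) and *Chrdl1*, a secreted inhibitor of bone morphogenetic proteins (26.3 ± 4.89 against 4.86 ± 0.935 CPM, log2 fold change 2.45, n = 3 libraries). They were chosen after their values were seen. Among astrocyte markers *Aqp4* (0.41) and *Gfap* (0.56) were higher in positive cells and *Gja1* was at 1575 ± 111 against 1583 ± 31.2 CPM (0.00). *Lmo1*, a transcriptional cofactor gene, was at 82.2 ± 5.23 against 36.3 ± 2.94 CPM (log2 fold change 1.19) and the β1-adrenoreceptor gene *Adrb1* at 27.8 ± 1.60 against 20.1 ± 1.41 CPM (0.49), both called. *Fos*, an activity-regulated gene (0.44, adjusted p = 0.0604), and *Adra1a* (0.06, adjusted p = 0.4) were not called.

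The study's lists of 20 genes for each of its 4 astrocyte clusters were chosen on cells of these libraries and are no independent evidence. Of the list for cluster 1, 14 of 19 genes tested were higher and 2 lower in *Igfbp2*-positive astrocytes, with a median log2 fold change of 0.74. Of cluster 2, 0 of 20 were higher and 18 lower (median −1.18), of cluster 3, 11 were higher and 0 lower (0.09), and of cluster 4, 5 were higher and 9 lower (−0.04).

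Hashtags placed 1852 astrocytes and 941 pericytes in the 16 mice, 45 to 228 astrocytes and 38 to 113 pericytes in each, and no member passed the test between behavioural groups. The pericytes here include those also counted as Acta2 or Dcn cells. Hashtag UMIs were few on astrocytes, with a median of 5 UMIs of the highest hashtag in assigned astrocytes and 16 in assigned pericytes, so the mouse of an astrocyte is uncertain. At the other hashtag quantile tried (0.95 in place of 0.99), 1888 astrocytes and 640 pericytes were assigned, of which 1114 and 611 had been assigned to the same mouse at 0.99. Over 6 pairs of groups, 4 members were tested in astrocytes (*Igfbp2*, *Igfbp5*, *Igf1r* and *Igf2r*) and 4 in pericytes (*Igfbp7*, *Igf2*, *Igf1r* and *Igf2r*). Of these 24 tests in each class, 0 passed edgeR's adjusted p of 0.05, and 0 passed in DESeq2. At an unadjusted p under 0.05 there were 0 in astrocytes and 4 in pericytes by edgeR, and 0 and 2 by DESeq2. Among all genes few were called, 0.00968% of 10332 genes in NoFR against NoFC and 0.0% in the other pairs in astrocytes. In pericytes 0.924% of 6495 genes were called in NoFR against NoFC, 0.323% in NoFR against FC, 0.077% each in FR against NoFC and FR against NoFR, and 0.0% in the remaining pairs.

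*Igfbp2* in astrocytes was at 69.4, 117, 56.9 and 49.5 CPM in NoFC mice, 84.6, 106, 77.8 and 70.9 in FC, 80.7, 99.5, 93.5 and 107 in NoFR and 117, 91.3, 65.5 and 72.1 in FR mice. The means were 73.1 ± 30.1 (SD, n = 4 mice), 84.7 ± 15.0, 95.1 ± 11.0 and 86.4 ± 23.0 CPM, and all groups overlapped. At the hashtag quantile of 0.95 the first and second of the NoFC mice were at 118 and 75.5 CPM, so values of single mice depended on the assignment. The smallest adjusted p of a member in astrocytes was 0.848, for *Igfbp2* in NoFR against NoFC (log2 fold change 0.33, SE 0.181, edgeR).

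The share of astrocytes with an *Igfbp2* UMI, in cells thinned to 7232 UMIs, averaged 22.5 ± 5.80% over NoFC mice and 25.4 ± 2.69% over FC mice, and 30.6 ± 4.45% over NoFR mice and 24.4 ± 5.93% over FR mice (n = 4 mice each). Unthinned, it was 28.7 ± 4.68%, 28.7 ± 1.33%, 31.3 ± 4.07% and 27.6 ± 5.79%. The largest difference, 8.15 percentage points between NoFR and NoFC, had a 2-sided exact permutation p of 0.0571 and an adjusted p of 0.286 over 6 comparisons, and 4 mice against 4 cannot go below 0.0286. Within library 1 the shares of single mice were 15.4% and 29.4% in NoFC and 24.4% and 34.0% in NoFR when thinned, and 35.6% and 25.3% in NoFC and 25.5% and 32.3% in NoFR unthinned, so the difference had no direction common to both.

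In pericytes *Igf2* was at 607, 514, 575 and 625 CPM in NoFC mice, 1027, 684, 731 and 562 in FC, 731, 586, 364 and 596 in NoFR and 724, 595, 465 and 619 in FR mice. FC mice had the highest mean (751 ± 197 CPM) and overlapped the others. From FC to NoFR *Igf2* differed by −0.48 on the log2 scale (SE 0.155, unadjusted p = 0.00326, adjusted p = 0.243, edgeR), and from NoFC to FC by 0.38 (unadjusted p = 0.0062, adjusted p = 0.999, edgeR).

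*Igf2r* in pericytes was at 108, 127, 134 and 58.0 CPM in NoFC and at 149, 184, 162 and 156 CPM in NoFR mice. The groups did not overlap at this quantile, but the log2 fold change of 0.56 (SE 0.204, unadjusted p = 0.00808, edgeR) had an adjusted p of 0.281. At a quantile of 0.95 they overlapped, with 1 NoFR mouse at 82.8 CPM and 1 NoFC mouse at 154 CPM. FC mice were at 141 ± 24.8 CPM and FR mice, also below all NoFR mice, at 134 ± 9.49 CPM (n = 4 mice each, adjusted p = 0.874 for FR against NoFR, edgeR). *Igfbp7* in pericytes lay between group means of 3167 ± 325 CPM in NoFR and 3448 ± 165 CPM in NoFC.

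**Figure D5:**
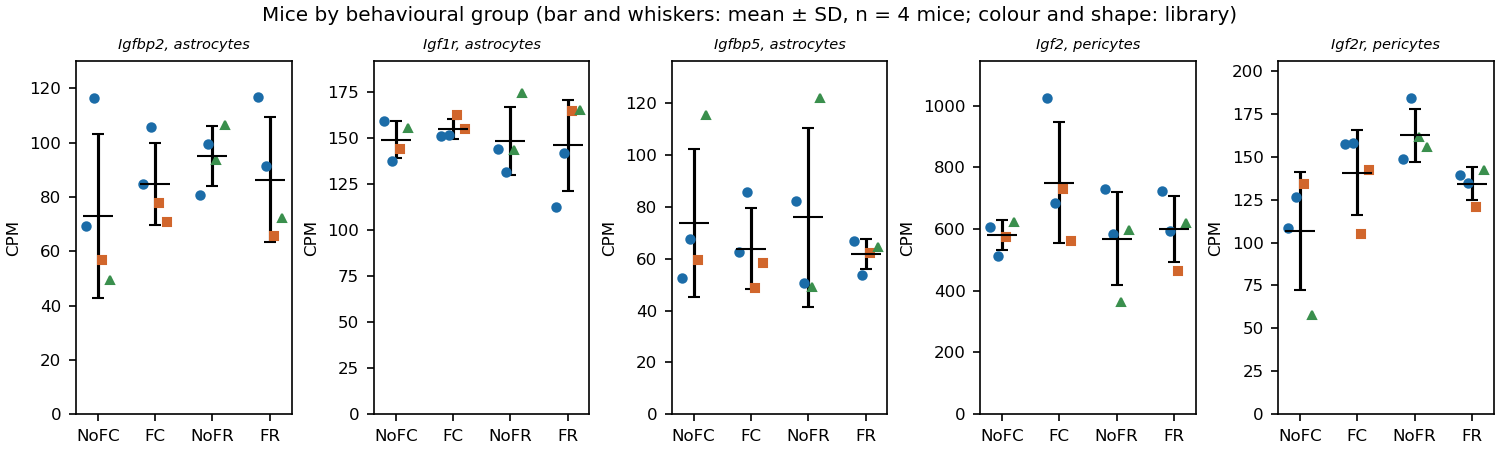
Level in CPM (vertical axis, from 0) of 3 IGF genes in astrocytes and 2 in pericytes for each mouse, by behavioural group (horizontal axis), with the mean and SD of 4 mice per group and circles for library 1, squares for library 2 and triangles for library 3. Mice of different groups overlap except for *Igf2r*, where NoFR mice (149 to 184 CPM) lie above NoFC (58.0 to 134 CPM) and FR mice (121 to 143 CPM) at a hashtag quantile of 0.99, differences that were not called.

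The genes whose pattern over the 12 sums (4 classes in 3 libraries) was most like each member's were sought among 9974 genes by Pearson's r of log2 (CPM + 1). The sums of a library share its depth, and classes share cells by rule only as stated above. Among the genes most like *Igfbp2* were *Tgfa* (r = 0.91) and *Erc2* (0.89). Most like *Igfbp5* were *Gm5089*, *Ildr2* and *Rassf2* (each 0.99), and most like *Igfbp4* were *Col13a1* (0.99), *Wnt5a* (0.99) and *Aox3* (0.98).

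*Igfbp7* was most like *Tagln2*, *Tm4sf1* and *Rgs5* (each 1.00), of which *Rgs5* was part of the class rule. *Igf2* was most like *Tfpi* (0.98), an inhibitor of tissue factor, *Bmp5* (0.97) and *Ptpn14* (0.97), which shared its low level in Acta2 cells. *Igf2r* was most like *Ywhab*, *Slc44a2* and *Mgat4a* (0.96 to 0.97), and *Igf1r* most like *Errfi1* (0.97), a feedback inhibitor of receptor tyrosine kinases, *Dock5* (0.93) and *Uri1* (0.92).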

How the data were processed

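ACSA2-sorted amygdala cells of 16 mice were pooled into 3 gene expression libraries with matching hashtag libraries. The matrices the authors deposited hold raw UMI counts. Per the labels and methods, reads were aligned to mm10 (GENCODE vM23) with Cell Ranger 3.0. The file headers name a later release, and the sources used here do not say whether introns were counted. Coordinates are from GRCm38, the same assembly, with GENCODE annotation, and promoters from RefSeq.

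Counts were summed per class and library, or per class and mouse, and tested with edgeR 4.0.16 (quasi-likelihood, TMM, filterByExpr, library as a term, Benjamini-Hochberg over all genes tested). Levels are CPM of all gene UMIs, without TMM. DESeq2 1.42.0 was an alternative. The class genes and, in its split, *Igfbp2* were not tested. Doublets were kept, except in 1 alternative. Mice were called with HTODemux (Seurat 5.3.0, quantile 0.99) on barcodes that passed 100 genes and stayed below 6% mitochondrial UMIs, from hashtags with at least 1000 UMIs in a library. The tests were checked on simulated data. At a log2 change of 1, 85.3% of changed genes were recovered in pericytes against astrocytes and 96.0% in the *Igfbp2* split. In Acta2 and Dcn cells against pericytes the shares were 4.30% and 7.61%, and at a change of 2 they were 37.4% and 57.4%. A member not called in Acta2 or Dcn cells can therefore still differ. Intervals and limits (3 counts for a count of 0) cover counting error only. Libraries are pools of mice and were a block in the class fits. P-values over 3 libraries thus measure how far the difference of classes varied between pools, with the spread estimated partly from all genes. They do not measure the spread between mice.

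The members and lists were chosen with earlier results of these data known. The genes named are the 10 members, the pathway genes called in any comparison, in the *Igfbp2* split the 20 largest changes in the same direction in 3 of 3 libraries with *Fos*, *Adrb1*, *Adra1a* and *Lmo1*, and the 3 genes most like each member that reached 10 CPM in a class. A few genes that met this rule are counted in the lists but not reported here by name. The replicate number of the labels names the library. Both cell classes of a library come from the same mice, so the library was a block in the comparisons of classes.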

Additional observations from a re-analysis of the deposited data

Results flagged for a closer look

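Barcodes in no class entered none of the comparisons, and a few of them were rich in IGF genes. In 5 barcodes of no class with 10 or more UMIs of endothelial markers, *Igf1r* had 102 UMIs (2958 CPM), with UMIs in 5 of 5 barcodes and 47 in the highest, above the 136 to 462 CPM of the Dcn cells and the levels of the other classes. *Igfbp7* had 59 UMIs in the same barcodes. These barcodes were too few for a comparison.

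The other barcode rich in *Ttr* besides that of the Acta2 cells lay in library 1 and in no class. It had 14039 UMIs, 32.9% of them *Ttr*, and held 30 *Igfbp2* UMIs and 21 *Igf2* UMIs, with 0 of *Igfbp7* and 0 of *Acta2*. In 36 groups of 4 mice, examined for a mouse far from the others, 0 were found, where chance gives about 5% of groups.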

How the results depend on the processing

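The calls of *Igfbp2*, *Igfbp5*, *Igfbp7*, *Igf2* and *Igf2r* in pericytes against astrocytes and of *Igf1r* and *Igfbp5* in the *Igfbp2* split held in each alternative run. For *Igf2* the direction was largely set by the filter on low counts, as stated above. Calls that did not hold are given beside their results. Pericytes against astrocytes gave 12424 genes, 8045 with sums per mouse and the mouse as replicate block, and 11225 to 11672 with a library left out. Acta2 cells against pericytes gave 792 genes, 434 in DESeq2 (302 higher), 1189 with no replicate block and 288 to 535 with a library left out. Dcn cells against pericytes gave 505 (72.9% higher), 266 in DESeq2 (98.9% higher), 83.3% higher of 460 without TMM, 252 without doublets, 111 with stricter classes, 49 with only those that met the pericyte rule, and 115 to 771 with a library left out. The *Igfbp2* split gave 5566, 2744 in DESeq2 and 4220 to 4900 with a library left out.

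The library was a replicate block in the main fits, and leaving the pairing of classes within a library out changed, apart from the count in Acta2 cells, the calls of *Igfbp7* in the *Igfbp2* split (lost, adjusted p = 0.227) and of *Igf2* in Dcn cells (gained, 0.77, adjusted p = 0.0129). Between behavioural groups, 1 gene-by-pair call in astrocytes became 3 in DESeq2, 191 with no filter, 0 with no library term, 0 at a hashtag quantile of 0.95 and 0 to 45 with a mouse left out. In pericytes 91 became 49 in DESeq2, 37 at a quantile of 0.95 and 47 to 103 with a mouse left out. With no filter on low counts 1 member was called in pericytes (*Igf2*, NoFR against FC). No comparison of the share of *Igfbp2*-positive astrocytes passed in any alternative. In the Acta2 and Dcn cells, sums of few cells limit what can be detected.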
